A study of Mus musculus with 2 samples.

Results

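Pde4a, Pde4b, Pde4c and Pde4d encode the PDE4 enzymes, a family of cAMP-specific phosphodiesterases. The members here are these 4 genes, matched by symbol, of 27999 genes listed for each library, and they were followed through every class of lung cell that marker genes could define. Single-cell suspensions came from the perfused and enzymatically dissociated lungs of female FVB/NJ mice that received Met-1 cells by tail vein at 10 weeks of age. Met-1 is a mouse mammary carcinoma line derived from a tumor driven by the polyomavirus middle T antigen (PYMT), whose transcript was counted as a gene of its own. The low-burden library was collected at week 1 and the high-burden library at week 3 after injection, no drug is named for either, and no uninjected lung is among the samples. Each group was 1 mouse and 1 library, so burden, time after injection, mouse and library cannot be told apart, and no test between groups was possible.

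PDE4 enzymes hydrolyze cAMP, the second messenger that adenylyl cyclases make when Gs-coupled receptors are engaged, and so they limit the activity of protein kinase A (PKA) and of the exchange factors called Epac. In leukocytes, cAMP restrains inflammatory responses, and in endothelium it tightens the barrier between cells. PDE4 inhibitors such as roflumilast are used as anti-inflammatory drugs in chronic lung disease. Some PDE4 transcripts are themselves induced by cAMP through CREB, the transcription factor that PKA phosphorylates.

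The low-burden library held 14041471 unique molecular identifiers (UMIs, each standing for 1 captured transcript) and the high-burden library 52723173. After filtering, 2473 low-burden cells with a median of 4073 UMIs and 3033 high-burden cells with a median of 13998 UMIs remained, and 11 cell barcodes occurred in both libraries. A gate on 92 listed markers, none of them a Pde4 gene, placed 84.8% and 81.7% of these cells in a class. The low- and high-burden libraries gave 507 and 110 endothelial-like cells, 573 and 127 stromal-like cells, 186 and 57 lymphoid-like cells, 606 and 911 myeloid-like cells, and 224 and 103 epithelial-like cells. The high-burden library also gave 1170 metastatic-like cells, gated on PYMT and other carcinoma markers, and the low-burden library gave 0. Of these 1170 cells, 77.3% had a PYMT UMI. In every class the leading genes included markers of that class and none of another. The gate used these same markers, so this is no independent check of the labels. A PYMT UMI was found in 36.8% to 54.3% of cells of each of the other high-burden classes. RNA free in the suspension was estimated at 6.51% to 8.93% of a class's UMIs in the low-burden library and 14.6% to 22.2% in the high-burden library.

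Levels below are in CPM, the UMIs of a gene summed over a class divided by all UMIs of that class and multiplied by 1000000. Brackets hold exact 95% intervals, which cover counting error only and say nothing of the spread between mice. A ratio whose interval excludes equality therefore separates these cells of these libraries, and nothing more. Libraries read transcripts near their 3′ end, so levels are compared within a gene across classes and not between genes.

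In GRCm38, the members lie on 4 chromosomes, all on the plus strand. Pde4a (ENSMUSG00000032177) spans chr9:21165714-21213248 and Pde4c (ENSMUSG00000031842) spans chr8:70723720-70751186. Pde4b (ENSMUSG00000028525) at chr4:102087543-102607259 covers 520 kb, and Pde4d (ENSMUSG00000021699) at chr13:108449948-109953461 covers 1504 kb. These loci carry 5 annotated transcripts for Pde4a, 13 for Pde4b, 7 for Pde4c and 20 for Pde4d, so the UMIs of a gene sum over isoforms that the counts do not separate. RefSeq promoters of 300 bases (250 before to 50 after a start, GRCm38.p6) were matched for all 4 members, 9 windows in all, and were searched on both strands for the CREB motif TGACGTCA and its shorter core TGACG, which the longer motif contains. The longer motif was in 588 of 32851 mouse promoters (1.79%) and in 0 of these 9 windows. The core was in 6837 promoters (20.8%) and in 2 of the 9 windows, too few windows to set against that share. Starts outside the 9 windows were not searched. The 2 windows with the core are shown for reference, and whether CREB acts there was not tested. In both, capitals mark the core, read on the minus strand; the first window is chr9:21183851-21184150 and the second chr4:102421305-102421604.
Pde4a: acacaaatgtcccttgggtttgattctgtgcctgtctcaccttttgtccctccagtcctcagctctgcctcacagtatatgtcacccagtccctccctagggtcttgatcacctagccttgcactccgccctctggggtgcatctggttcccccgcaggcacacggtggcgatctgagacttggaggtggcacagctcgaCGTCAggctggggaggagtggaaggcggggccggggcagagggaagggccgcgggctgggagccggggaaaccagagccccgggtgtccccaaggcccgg
Pde4b: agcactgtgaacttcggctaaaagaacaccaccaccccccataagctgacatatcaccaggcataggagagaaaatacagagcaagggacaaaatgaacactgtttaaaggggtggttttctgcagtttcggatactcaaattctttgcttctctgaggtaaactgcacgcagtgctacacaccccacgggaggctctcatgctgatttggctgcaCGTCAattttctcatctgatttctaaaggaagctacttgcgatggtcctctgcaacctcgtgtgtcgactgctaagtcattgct

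Pde4b was highest in endothelial-like cells of both libraries, and the other classes followed in the same order. In the low-burden library it stood at 222 CPM (205 to 240; 614 UMIs) in endothelial-like cells, 69.2 CPM (59.5 to 80.0; 181 UMIs) in myeloid-like cells and 48.0 CPM (40.2 to 56.8; 133 UMIs) in stromal-like cells. Lymphoid-like cells held 46.7 CPM (32.3 to 65.3; 34 UMIs) and epithelial-like cells 18.3 CPM (12.7 to 25.6; 34 UMIs). Endothelial-like cells thus lay above myeloid-like cells, these above stromal-like cells, and lymphoid-like above epithelial-like cells, each by more than counting error, whereas the stromal-like and lymphoid-like levels did not separate. In the high-burden library Pde4b was at 171 CPM (149 to 196; 212 UMIs) in endothelial-like cells, 58.4 CPM (53.7 to 63.4; 570 UMIs) in myeloid-like cells and 30.8 CPM (22.7 to 41.0; 47 UMIs) in stromal-like cells. Lymphoid-like cells held 28.5 CPM (15.2 to 48.7; 13 UMIs), metastatic-like cells 21.1 CPM (19.5 to 22.8; 620 UMIs) and epithelial-like cells 16.5 CPM (10.2 to 25.2; 21 UMIs). The first 3 places separated again, and the last 4 neighbors did not. The level that free RNA would give was between 5.70 and 9.05 CPM in every class, below the level measured in each.

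**Figure D1:**
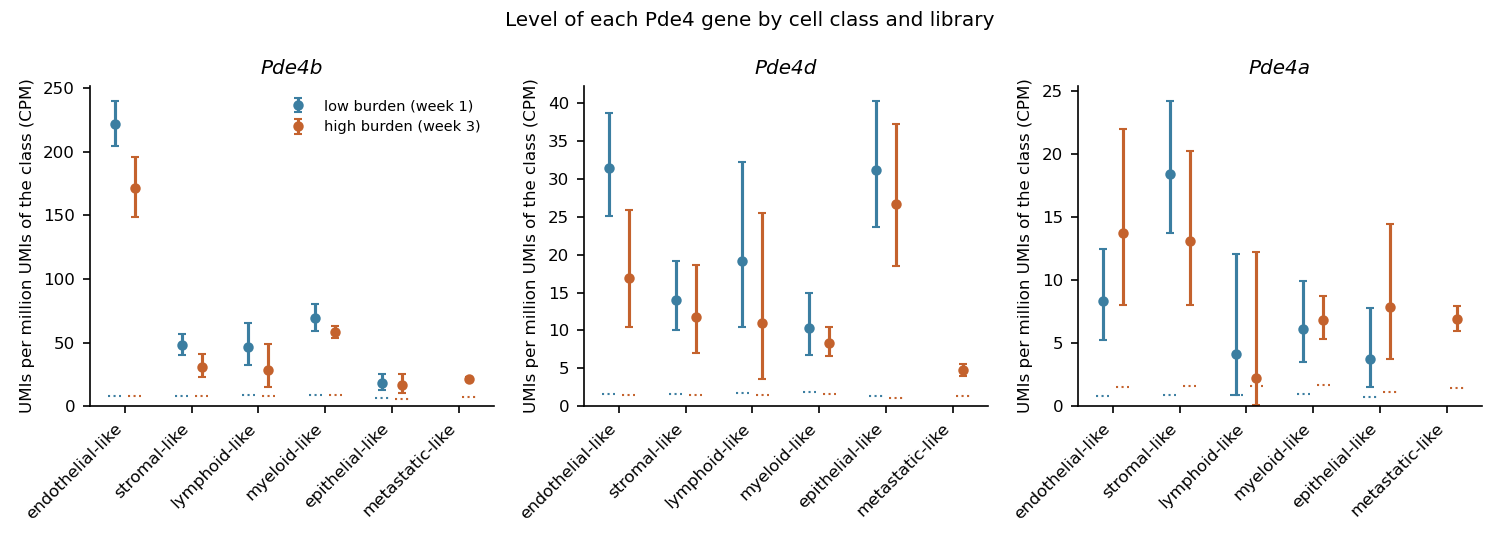
Levels of Pde4b, Pde4d and Pde4a (CPM on the vertical axis, 1 panel per gene, each with its own scale) in every marker-gated class of the low-burden (blue) and high-burden (orange) libraries; bars are exact 95% intervals of counting and dotted lines the level that free RNA would give. Pde4b in endothelial-like cells (222 and 171 CPM) stands above all other classes of its library, and Pde4d is highest in endothelial-like and epithelial-like cells.

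Set against all other gated cells, endothelial-like cells held 4.63-fold (4.07 to 5.28) more Pde4b in the low-burden library and 5.72-fold (4.92 to 6.62) more in the high-burden library. Without metastatic-like cells among the others, the high-burden log2 ratio was 1.78, against 2.21 in the low-burden library, so the larger high-burden fold rests on them. Of the genes tested in the same contrast, 14.9% were at least 2-fold higher in endothelial-like cells of the low-burden library and 17.1% in those of the high-burden library. The elevated level was not carried by a few cells: in the low-burden library 224 of 507 endothelial-like cells had no Pde4b UMI, 137 had 1, 66 had 2 and 80 had at least 3, with at most 10 in a cell. The 51 cells with the most held 42.0% of the UMIs. With each cell thinned to 3000 UMIs, which leaves out 141 shallower low-burden cells and none of the high-burden cells, 43.4% (159 of 366) and 44.5% (49 of 110) of endothelial-like cells kept a Pde4b UMI. Unthinned, these shares were 55.8% and 76.4%, at median depths of 4029 and 7632 UMIs. Thinned shares elsewhere were 18.7% and 16.5% in myeloid-like cells, 10.2% in high-burden stromal-like cells (53 of 482 in the low-burden library) and 15.3% and 8.77% in lymphoid-like cells. They were 5.42% and 4.85% in epithelial-like cells (medians of 5516 and 7650 UMIs; 13.8% and 19.4% unthinned), and 6.58% in metastatic-like cells. At 2000 UMIs the endothelial-like shares were 31.2% and 34.5%, still the highest, and the order of the lowest classes changed, with 6.80% in high-burden epithelial-like and 4.19% in metastatic-like cells. Myeloid markers summed to 157 CPM in the low-burden and 461 CPM in the high-burden endothelial-like cells, against 6916 and 16349 CPM in myeloid-like cells of the same libraries; their part in the Pde4b level was not tested.

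Within classes, Pde4b varied by cell type. Blood endothelial-like cells of the low-burden library held 237 CPM and lymphatic endothelial-like cells 92.6 CPM (15 UMIs in 21 cells), a difference of 2.56-fold (1.54 to 4.61). In the high-burden library blood endothelial-like cells held 176 CPM, and too few lymphatic cells were found to compare. Among lymphoid-like cells of the low-burden library, the level was 120 CPM in B-like cells (10 UMIs in 23 cells) and 32.6 CPM in T-like cells (15 UMIs in 110 cells). The intervals of these B-like and T-like cells did not overlap at week 1, and in the high-burden library they did (44.0 CPM from 6 UMIs and 22.9 CPM from 7 UMIs). Alveolar macrophage-like cells (59.6 CPM) and cells with markers of monocytes or C1q macrophages (78.4 CPM) did not separate in the low-burden library. The latter held 55.5 CPM in the high-burden library, where they made up 804 of 911 myeloid-like cells, against 86 of 606 in the low-burden library, and alveolar macrophage-like cells went from 361 to 3. Fibroblast-like cells were at 47.7 and 33.3 CPM, and smooth muscle- or pericyte-like cells at 50.1 CPM (21 UMIs) in the low-burden library. AT2-like cells, alveolar type II epithelial cells by their surfactant genes, held 9 Pde4b UMIs in 104 low-burden cells and 6 in 38 high-burden cells, beside 14 and 4 of Pde4d, 2 and 5 of Pde4a and 3 and 0 of Pde4c.

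The myeloid-like class held 2.17-fold (1.95 to 2.41) more Pde4b than the other gated cells of the high-burden library, in a contrast where 11.3% of genes were at least 2-fold higher. This rests on the metastatic-like cells in the comparison: without them the log2 ratio was -0.16, and in the low-burden library, which has none, myeloid-like cells held 0.69-fold the level of the others. Metastatic-like cells held 0.35-fold (0.31 to 0.39) the level of the other gated cells, while 19.9% of genes were at least 2-fold lower there. The main metastatic clusters held 18.7 CPM (16.8 to 20.8) in 724 cells and 24.7 CPM (22.2 to 27.5) in 674 cells, which differ by more than counting error.

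Pde4d, the member with the longest locus, was spread more evenly, and its highest levels were in endothelial-like and epithelial-like cells. In the low-burden library these held 31.4 CPM (25.2 to 38.8; 87 UMIs) and 31.2 CPM (23.7 to 40.3; 58 UMIs), and lymphoid-like cells 19.2 CPM (14 UMIs), stromal-like cells 14.1 CPM (39 UMIs) and myeloid-like cells 10.3 CPM (27 UMIs). In the high-burden library epithelial-like cells were at 26.7 CPM (18.5 to 37.2; 34 UMIs), endothelial-like cells at 17.0 CPM (10.5 to 25.9; 21 UMIs), stromal-like cells at 11.8 CPM (18 UMIs) and lymphoid-like cells at 10.95 CPM (5 UMIs). Myeloid-like cells followed with 8.40 CPM (82 UMIs) and metastatic-like cells with 4.73 CPM (3.97 to 5.58; 139 UMIs). No neighbors in either order separated beyond counting error except myeloid-like above metastatic-like cells. Free RNA would give 1.06 to 1.84 CPM, below the measured level in every class.

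Against all other gated cells, epithelial-like cells held 1.66-fold (1.21 to 2.25) more Pde4d in the low-burden library and 4.26-fold (2.89 to 6.11) more in the high-burden library, where 9.9% of genes were at least 2-fold higher in that class. With metastatic-like cells left out the high-burden log2 ratio was 1.46, against 2.09 with them. Endothelial-like cells held 1.82-fold (1.37 to 2.39) and 2.59-fold (1.58 to 4.04) more. Thinned to 3000 UMIs, 10.3% and 12.6% of epithelial-like cells and 8.47% and 7.27% of endothelial-like cells had a Pde4d UMI, against 20.1% and 30.1% and 15.6% and 18.2% unthinned. At 2000 UMIs these shares were 7.14% and 4.85% and 6.51% and 1.82%, so they give no order between libraries. Epithelial Pde4d was not confined to AT2-like cells (24.0 and 14.0 CPM): 13 ciliated-like cells of the low-burden library held 6 UMIs, or 88.3 CPM (32.4 to 192). Within myeloid-like cells of the low-burden library, alveolar macrophage-like cells held 20 UMIs (15.3 CPM), and monocyte or C1q macrophage-like cells held 0 of 382511 UMIs. Taking that 0 at the floor of 3 UMIs the alveolar macrophage-like level was at least 1.95-fold higher, and the exact 95% interval of the ratio starts at 1.44-fold.

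Pde4a was low throughout, and its highest level in the low-burden library was in stromal-like cells. These held 18.4 CPM (13.7 to 24.2; 51 UMIs), followed by endothelial-like cells with 8.31 CPM (23 UMIs), myeloid-like cells with 6.12 CPM (16 UMIs), lymphoid-like cells with 4.12 CPM (3 UMIs) and epithelial-like cells with 3.77 CPM (7 UMIs). Stromal-like cells lay above endothelial-like cells by a log2 ratio of 1.15 (0.41 to 1.92), and no other neighbors separated. In the high-burden library endothelial-like cells (13.7 CPM; 17 UMIs) and stromal-like cells (13.1 CPM; 20 UMIs) were level, ahead of epithelial-like cells (7.84 CPM; 10 UMIs), metastatic-like cells (6.90 CPM; 203 UMIs), myeloid-like cells (6.86 CPM; 67 UMIs) and lymphoid-like cells (2.19 CPM; 1 UMI). No neighbors in that order separated.

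Stromal-like cells held 2.99-fold (1.98 to 4.52) more Pde4a than the other gated cells of the low-burden library, where 12.3% of genes were at least 2-fold higher in that class, and 1.86-fold (1.12 to 2.92) more in the high-burden library. Within the class, fibroblast-like cells were at 17.5 and 11.6 CPM and low-burden smooth muscle- or pericyte-like cells at 23.8 CPM (10 UMIs), which did not separate. Thinned to 3000 UMIs, 5.19% of low-burden and 3.15% of high-burden stromal-like cells had a Pde4a UMI (8.55% and 12.6% unthinned), against 1.97% and 3.88% in epithelial-like cells. The lymphoid-like levels, from 3 and 1 UMIs, were not distinguishable from the 0.90 and 1.60 CPM that free RNA would give.

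Pde4c was near the limit of detection. The low-burden library held 7 UMIs in all, 6 of them in epithelial-like and 1 in endothelial-like cells, and the high-burden library held 4, with 1 in epithelial-like, 1 in metastatic-like and 2 in ungated cells. The 6 low-burden epithelial UMIs came from 6 cells (3.23 CPM; 1.18 to 7.03), and 3 of them from AT2-like cells. The stromal-like, lymphoid-like and myeloid-like classes had none in either library, and in the 9764078 UMIs of the high-burden myeloid-like cells a count of 0 allows up to 0.307 CPM.

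Of all Pde4b UMIs in filtered low-burden cells, 45.6% lay in endothelial-like cells, which held 20.8% of all UMIs of that library. In the high-burden library the endothelial share of Pde4b was 10.6%, in cells that held 2.40% of all UMIs. There, metastatic-like cells held 30.9% of Pde4b UMIs and 57.1% of all UMIs, and myeloid-like cells 28.4% and 19.0%. The larger Pde4b share of the metastatic-like cells in this library thus goes with their number and depth. Their level in CPM was among the lowest. For Pde4a, stromal-like cells held 35.7% of low-burden UMIs and metastatic-like cells 51.4% of high-burden UMIs.

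**Figure D2:**
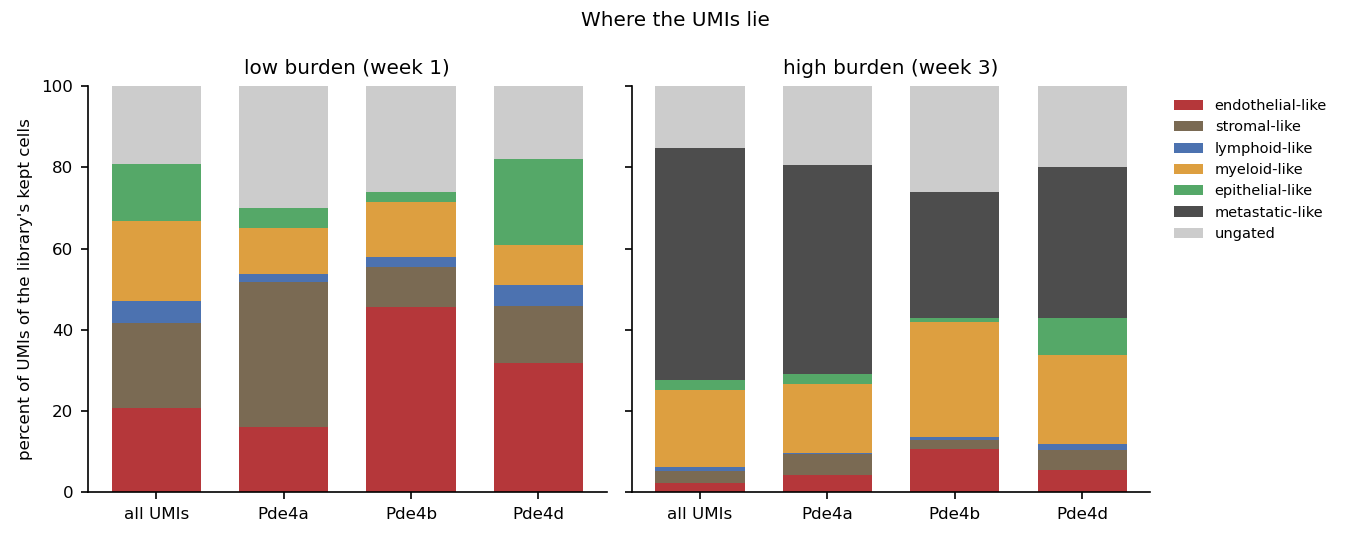
Percent of all UMIs, and of the UMIs of Pde4a, Pde4b and Pde4d, that lies in each class and in ungated cells of the low-burden (left) and high-burden (right) libraries; each bar adds to 100%. Endothelial-like cells hold 45.6% of low-burden Pde4b UMIs with 20.8% of all UMIs, and metastatic-like cells hold 30.9% of high-burden Pde4b UMIs with 57.1% of all UMIs.

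Between libraries, summed over all gated cells, Pde4b was at 92.7 CPM in the low-burden and 34.0 CPM in the high-burden library, a log2 ratio (high over low) of -1.45 (-1.57 to -1.33). Pde4d went from 20.9 to 6.85 CPM, a log2 ratio of -1.61, and Pde4a from 9.31 to 7.28 CPM, a log2 ratio of -0.35. Most of this arithmetic lay in the makeup of the libraries. Endothelial-like cells made up 25.8% of gated UMIs in the low-burden library and 2.83% in the high-burden library, of which metastatic-like cells made up 67.3%. Had every class kept its low-burden level, with metastatic-like cells at their own, the high-burden makeup alone would have given 38.7 CPM of Pde4b, a log2 ratio of -1.26, and the levels within classes added -0.19. The same split gave -1.39 and -0.22 for Pde4d and -0.40 and 0.05 for Pde4a. Fewer cells of a class recovered from the suspension and fewer in the lung cannot be told apart here.

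**Figure D3:**
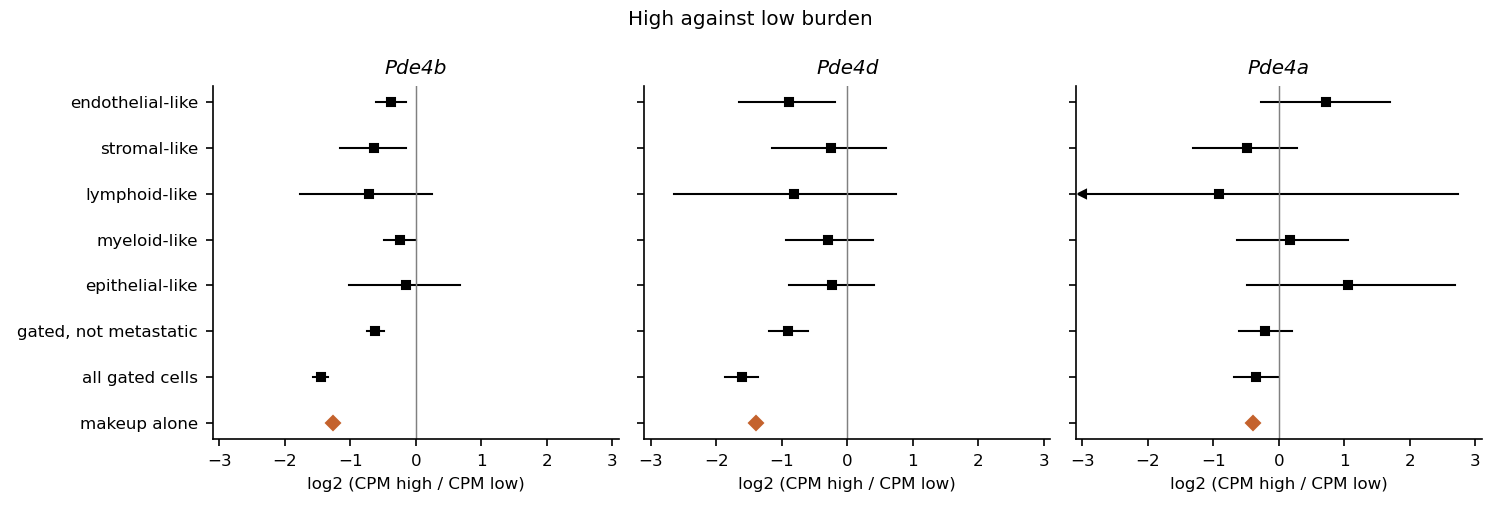
Log2 ratio of CPM, high over low burden, for Pde4b, Pde4d and Pde4a (1 panel each) in every class present in both libraries, in gated cells without and with the metastatic-like class, and from makeup alone (diamond); bars are exact 95% intervals of counting, and the arrow marks one that runs off the axis. All gated cells sit at -1.45 for Pde4b and -1.61 for Pde4d, while the class ratios of these genes lie between -0.89 and -0.15.

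In the 5 classes present in both libraries, no member with at least 50 UMIs over both differed by 2-fold. Within finer classes, Pde4d in blood endothelial-like cells did, with 72 UMIs (34.4 CPM) in the low-burden and 17 UMIs (16.7 CPM) in the high-burden library, a log2 ratio of -1.04 (-1.90 to -0.26). Pde4a in monocyte or C1q macrophage-like cells was also past the fold, at 1.44, from 1 low-burden and 63 high-burden UMIs, with an interval (-1.09 to 6.77) that includes 0. The log2 ratio of Pde4b was -0.37 (-0.61 to -0.15) in endothelial-like, -0.64 (-1.15 to -0.15) in stromal-like, -0.71 (-1.76 to 0.25) in lymphoid-like, -0.24 (-0.49 to 0.004) in myeloid-like and -0.15 (-1.01 to 0.67) in epithelial-like cells. All 5 lay below 0, and the intervals of the endothelial-like and stromal-like classes excluded it. The endothelial-like ratio lay slightly above 0 as a mean over cells and without cells with a PYMT UMI, as given in the section on processing below. With the stricter gate the stromal-like ratio was -0.024. The stromal-like class also drew on other clusters in each library: cluster 9 had 249 low-burden and 14 high-burden cells, cluster 14 had 230 and 43, and cluster 11 had 25 and 75. Over all genes tested, 10.7% differed by at least 2-fold in endothelial-like cells, 19.9% in stromal-like cells, 14.2% in lymphoid-like cells, 24% in myeloid-like cells and 8.42% in epithelial-like cells. The median log2 ratio over genes was -0.14 in endothelial-like, -0.11 in stromal-like and -0.14 in epithelial-like cells, so that relative to it Pde4b differed by -0.23, -0.53 and -0.01. For Pde4d the log2 ratio was -0.89 (-1.65 to -0.19) in endothelial-like cells, where counts were 21 and 87 UMIs, and between -0.81 and -0.23 in the other 4 classes, with intervals that include 0. The Pde4a log2 ratios ran from -0.91 to 1.06, with both signs, and every interval included 0; the highest came from 10 against 7 UMIs in epithelial-like cells.

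The endothelial-like difference in Pde4b was also read within the clusters of the class, a split added after the data had been seen. Its sign was not the same in all of them, and the interval of each included 0. These clusters were found without the Pde4 genes and are named here by number with leading genes. In cluster 12, led by genes such as Sema3c and Calcrl, Pde4b was at 252 CPM in 188 low-burden and 285 CPM in 39 high-burden cells, a log2 ratio of 0.17 (-0.16 to 0.50). Cluster 0 held 222 and 186 CPM, a log2 ratio of -0.26 (-0.90 to 0.34), and cluster 4, with Vwf and Ccl21a among its leading genes, held 131 and 97.7 CPM, a log2 ratio of -0.43 (-0.95 to 0.10). Cluster 4, the lowest of these, supplied 16.2% of low-burden but 55.4% of high-burden endothelial UMIs, whereas cluster 12 supplied 52.0% and 27.5%. The level also moved with the tumor transcript: in the high-burden library 60 endothelial-like cells without a PYMT UMI (median 7376 UMIs) held 226 CPM of Pde4b (189 to 269), and 50 cells with such a UMI (median 8028.5 UMIs) held 125 CPM (99.6 to 155). The cells without a PYMT UMI were thus level with the low-burden class. The 50 cells with one summed to 672678 UMIs and the 60 cells without to 565182, although their medians were close. The part of depth, cluster, free RNA or mixed droplets in the level of the cells with a PYMT UMI was not tested. For Pde4d, the log2 ratio was -1.26 (-3.61 to 0.40) in cluster 0, from 3 high-burden and 35 low-burden UMIs. It was -1.31 (-3.26 to 0.15) in cluster 12, from 4 and 42 UMIs, but 1.51 (-0.36 to 3.96) in cluster 4, from 13 and 3 UMIs. All of these intervals included 0. In myeloid-like cells Pde4b differed less with the PYMT UMI, at 53.2 CPM (46.9 to 60.1) in 422 cells with it and 63.6 CPM (56.7 to 71.0) in 489 cells without.

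**Figure D4:**
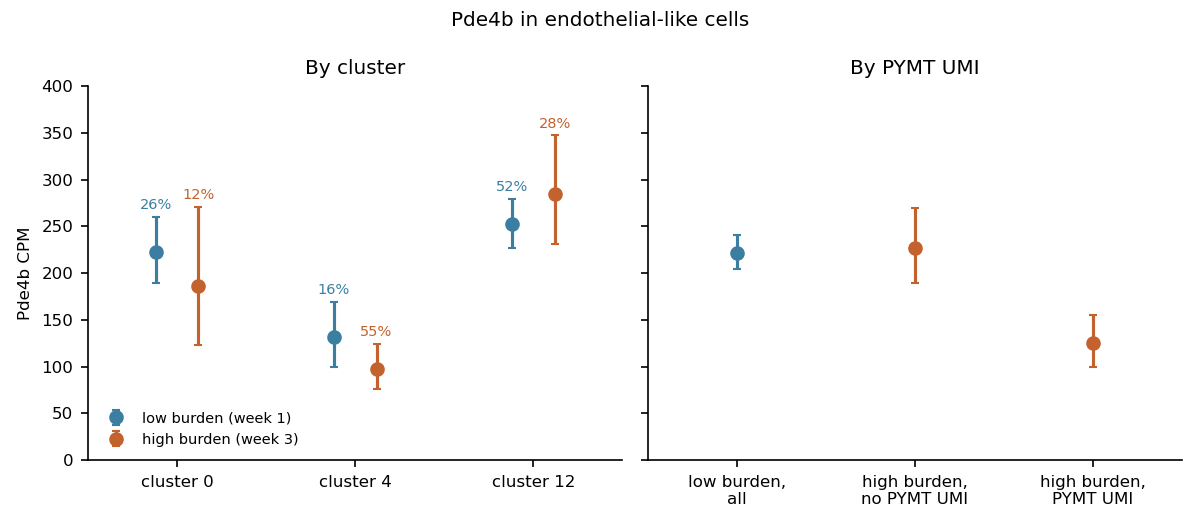
Pde4b level (CPM) in endothelial-like cells by cluster, left, and by presence of a PYMT UMI, right, with exact 95% intervals of counting; percentages above the points give the share of the library's endothelial-like UMIs that lies in the cluster. Cluster 4 is the lowest (131 and 97.7 CPM) and holds 55.4% of the high-burden UMIs, and high-burden cells without a PYMT UMI (226 CPM) sit at the level of the low-burden class (222 CPM).

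The genes around PDE4 in cAMP signaling were read from a list of 87, of which 86 are in the files, in 7 roles. The most-counted gene of each role gives the background level. Gnas, the Gs alpha subunit, was between 301 and 1264 CPM over classes and libraries, Prkar1a, a PKA regulatory subunit, between 95.6 and 318 CPM, and Fos, an immediate target of CREB, between 283 and 2050 CPM. Adcy7, an adenylyl cyclase of blood cells, was lowest in endothelial-like cells (5.42 and 3.23 CPM) and reached 43.6 CPM in low-burden myeloid-like cells. Akap13, an anchoring protein, ran from 31.5 to 276 CPM, Atf1, a CREB relative, from 23.5 to 57.7 CPM, and Pde7a, another cAMP phosphodiesterase, from 6.14 to 41.2 CPM with its highest level in low-burden lymphoid-like cells.

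Endothelial-like cells, the class with the most Pde4b, were at least 2-fold above the other cells in both libraries for 12 of 63 tested pathway genes (19%), against 9.83% of all genes tested. The high-burden folds below, like that of Pde4b, are set against cells that include the metastatic-like class. These 12 included receptors, a cyclase, other phosphodiesterases, Epac genes and partners of PDE4. Among receptors, Calcrl, the receptor for adrenomedullin and CGRP, was 23.9-fold and 44.1-fold higher in the low- and high-burden libraries, Adrb1, the beta-1 adrenergic receptor, 10.8-fold and 12.9-fold, and Adora2a, an adenosine receptor, 2.34-fold and 5.12-fold. The cyclase Adcy4 was 24.3-fold and 50.7-fold higher. Other phosphodiesterases were higher as well: Pde3a 7.40-fold and 27.3-fold, Pde8b 5.03-fold and 11.4-fold, and Pde2a, which cGMP stimulates, 2.84-fold and 5.62-fold. Rapgef3 and Rapgef4, which encode Epac1 and Epac2, were 9.03-fold and 4.43-fold and 3.64-fold and 11.7-fold higher. The anchoring protein gene Akap2 was 5.47-fold and 5.84-fold higher, and Arrb1, which encodes a beta-arrestin that brings PDE4 to receptors, 4.39-fold and 9.71-fold. None of 9 CREB family genes and none of 10 immediate CREB targets passed this fold in the class, groups too small to set against the share over all genes.

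**Figure D5:**
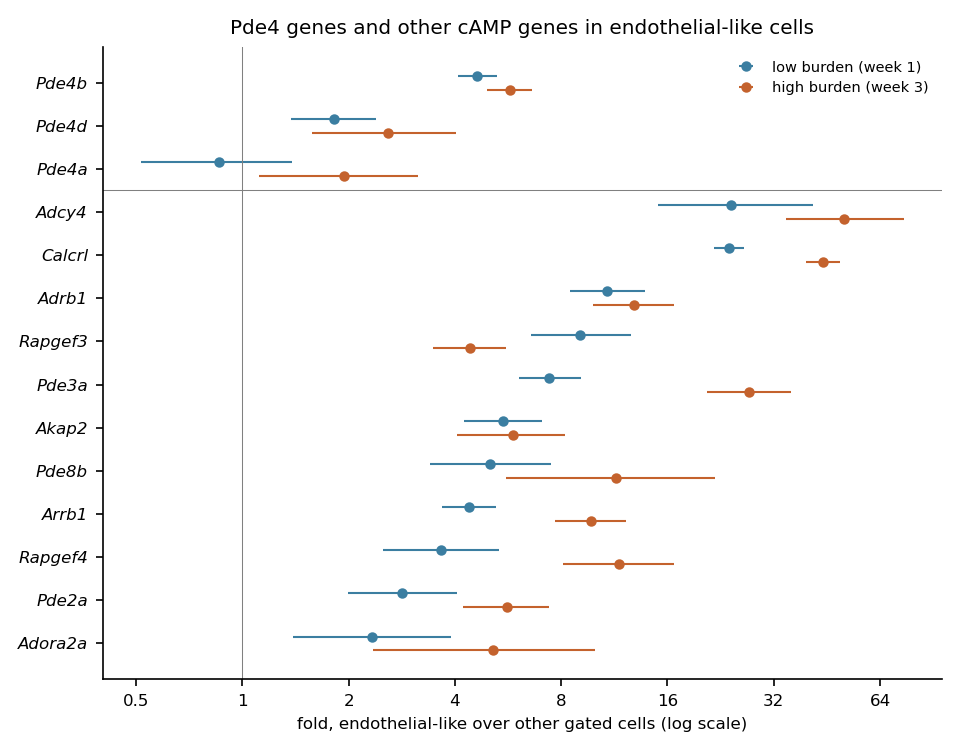
Fold of endothelial-like over other gated cells (log axis) in both libraries for Pde4b, Pde4d and Pde4a, top, and for cAMP pathway genes at least 2-fold higher in both (up to 3 per role), with exact 95% intervals of counting. Calcrl and Adcy4 lie farthest to the right, and Pde4b (4.63-fold and 5.72-fold) sits in the range of Akap2, Arrb1 and Pde2a.

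The other classes were read in the same way, each with its share over all genes in brackets. Myeloid-like cells were higher for 7 of 63 genes (6.48% of all genes), among them Pkib, a PKA inhibitor (21.1-fold and 27.3-fold), Pde3b (3.17-fold and 7.88-fold), the beta-arrestin gene Arrb2 (3.51-fold and 7.80-fold), the proton-sensing receptor gene Gpr65 (5.70-fold and 34.0-fold) and the prostaglandin E2 receptor gene Ptger4 (3.51-fold and 12.8-fold). Stromal-like cells were higher for 5 (6.59% of all genes), including the cyclase genes Adcy6 (2.72-fold and 2.81-fold) and Adcy9 (2.21-fold and 2.17-fold) and the anchoring gene Akap12 (4.32-fold and 2.72-fold). The high-burden fold of Adcy9 rests on 7 UMIs, with an interval (0.85 to 4.67) that includes equality. Lymphoid-like cells were higher for 2 (3.76% of all genes), Adora2a and Crem, a CREB relative with repressor forms (2.16-fold and 3.38-fold). Epithelial-like cells were higher for 2 (5.49% of all genes), the adenosine receptor gene Adora2b (10.9-fold and 4.85-fold) and Akap5, which is also in the AT1 marker list (6.13-fold and 9.26-fold). Metastatic-like cells, present only at high burden, were higher for 8 of 68 genes (14.8% of all genes), including Rapgef3, also among the endothelial genes above (2.09-fold), Gnas (2.20-fold), Pde7a (2.21-fold) and the PKA regulatory subunit gene Prkar2b (2.99-fold).

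Between libraries, pathway genes with at least 50 UMIs were compared class by class. In endothelial-like cells 1 of 43 was at least 2-fold higher in the high-burden library (4.17% of all genes) and 5 were lower (6.56%). Pde2a was higher, from 23.9 to 49.3 CPM, and Pde8b lower, from 27.1 to 10.5 CPM, so that other phosphodiesterases moved in both directions. Among receptors Calcrl went from 1376 to 578 CPM, and the anchoring genes Akap1 and Akap2 had log2 ratios of -1.25 and -1.08. With the median shift of -0.14 removed, 3 of these 5 stayed at least 2-fold lower, and Akap2 did not. No PKA, Epac, CREB family or CREB target gene passed the fold in this class. The clusters behind this class also differed in share between libraries, as given above. Cluster 12, with Calcrl among its leading genes, supplied 52.0% of low-burden and 27.5% of high-burden endothelial UMIs. The part of this difference in the ratios was not tested.

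In stromal-like cells, which came from different clusters in the libraries as given above, 4 of 49 were higher (6.77% of all genes) and 9 lower (13.2%). Higher were Pde10a (log2 ratio 1.99), Prkar2b (1.62) and the CREB targets Nr4a3 (1.28) and Nr4a2 (1.17), and among the lower were Pde8a (-1.68), Adcy5 (-2.25), Adrb3 (-3.62), Calcrl (-1.78), Akap12 (-2.38), Adcy3, Arrb1 and Per1. In myeloid-like cells 4 of 53 were higher (10% of all genes) and 12 lower (14%), with Areg, an EGF family ligand and CREB target, at 1.53 and 16.4 CPM, Adcy3 at 38.6 and 2.97 CPM and Prkar2b at 105 and 9.32 CPM. The clusters behind this class differed between libraries, as given above, so these values compare unlike macrophages. In lymphoid-like cells 1 of 17 was higher (5.77%) and 0 lower (8.44%), namely Pkig, a PKA inhibitor (log2 ratio 1.32). T-like, B-like and natural killer-like cells of this class numbered 110, 23 and 28 in the low-burden library. In the high-burden library they numbered 34, 21 and 1, so ratios in this class, that of Pde4b included, compare unlike mixtures. In epithelial-like cells 1 of 32 was higher (2.41%), the CREB target Nr4a2 (22.7 against 11.3 CPM), and 3 were lower (6%), Akap5 (-2.14), Calcrl (-1.06) and Areg (-1.03), of which Akap5 alone stayed past the fold with the median shift removed. AT1-like cells, whose marker list holds Akap5, were 35 of 224 low-burden and 10 of 103 high-burden epithelial-like cells. Their part in the Akap5 ratio was not tested. Calcrl was thus lower in 4 classes, and outside endothelium its level was small: in the low-burden library it stood at 54.1 CPM in stromal-like, 67.3 CPM in myeloid-like and 47.3 CPM in epithelial-like cells, against 1376 CPM in endothelial-like cells, and the part of free RNA was not tested.

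The genes most like each member were ranked by Pearson's r of log2 levels over 24 sums of finer classes, among 10916 genes. The sums share libraries and depth, so r is a description only. Nearest to Pde4b were Lmo2 (r = 0.84), a cofactor of blood and endothelial transcription, BC028528 (0.83), the receptor gene Acvrl1 (0.81), Rasgrp3 (0.81) and Cbfa2t3 (0.80), and 3 of these 5 were highest in low-burden blood endothelial-like cells. Nearest to Pde4d were Zfp865, Dpcd, Hmgcs1, Cfap20 and Cpsf7 (r from 0.74 to 0.77), all highest in the 13 low-burden ciliated-like cells. The high-burden library gave no ciliated sum, since its 1 such cell held 6607 UMIs and a sum needed 50000. In the high-burden library alone, without that class, r for Cfap20 was 0.08. Nearest to Pde4a were Gcc1, N6amt1, Jmjd8, March8 and Ndufb2 (r from 0.79 to 0.80), on UMI counts that are low for Pde4a in every class. Among the members r was -0.09 between Pde4a and Pde4b, 0.31 between Pde4a and Pde4d and -0.05 between Pde4b and Pde4d. In the low-burden library alone these were -0.21, 0.35 and -0.16, and in the high-burden library alone 0.12, 0.27 and 0.23, so the sign of both that involve Pde4b turned with the library. The low-burden library gave 14 sums and the high-burden library 10, which do not cover the same classes. Pde4c had too few UMIs to be ranked.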

How the data were processed

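Lungs of 1 mouse per group were dissociated and run on the 10x Genomics droplet platform, and the authors aligned reads to mm10 with an added PYMT gene and counted UMIs with Cell Ranger 2.0.2. The deposited values are raw UMI counts per gene and cell, 1 matrix per library with 2668 low-burden and 3121 high-burden barcodes, not normalized. The methods describe a Cell Ranger aggregation step for the libraries; whether the deposited matrices precede it is not given in the sources used here. The high-burden matrix holds as many barcodes as the methods count after it, the low-burden matrix slightly more, and their median UMIs per cell differed 3.47-fold. The members and lists were chosen with earlier results of these data known, and the gate was set after marker levels, but not Pde4 levels, had been seen.

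Cells with 1000 to 7000 genes and at most 10% mitochondrial UMIs were kept. A marker counted as on where its UMIs exceeded a Poisson tail of 0.001 given 20% free RNA, and a class needed at least 2 markers on, 2 more than the next class, which could have at most 2. Clusters were Leiden clusters (resolution 1, 10 principal components, 15 neighbors, 2000 variable genes, Pde4 genes left out). Scrublet marked 9 and 8 cells, under 0.5%, which was taken as a failed call, so doublets were kept. UMIs were summed per class. Intervals were exact (Poisson for levels, binomial for ratios and Clopper-Pearson for shares, 95%), genes other than the members needed 50 UMIs over both sides of a ratio, members are given at any count, and the floor was 3 UMIs. No count model was fitted, since each group is 1 library. Named genes were the members, up to 3 genes per class and pathway role past 2-fold, the most-counted gene per role and the 5 genes most like each member. Alternatives were another gate, clusters in place of gates, thinning, scaling, filters and cells left out. Ratios were tested on simulated data. Python 3.11.15, numpy 2.4.6, scipy 1.17.1, pandas 2.3.3, scanpy 1.11.5 and matplotlib 3.10.9 were used. Sequences came from RefSeq and gene positions from GENCODE M21. Results for an item withheld from this text are not reported here.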

Additional observations from a re-analysis of the deposited data

Results flagged for a closer look

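The 377 low-burden and 555 high-burden cells that no gate placed in a class held Pde4 UMIs above the limit that a count of 0 allows, although they entered no comparison between classes. In these cells Pde4b stood at 138 CPM in the low-burden and 67.0 CPM in the high-burden library, Pde4d at 19.3 and 9.49 CPM, and Pde4a at 16.9 and 9.87 CPM. Ungated cells held 26.0% of all Pde4b UMIs in the low-burden library, with 19.1% of all UMIs, and 26.1% in the high-burden library, with 15.2% of all UMIs.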

How the results depend on the processing

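No paired analysis was possible because each group is 1 library. The 21 main results had 158 alternatives. Of these, 134 left the value within its counting interval, 23 moved it and 1 turned the sign of a ratio past 2-fold. The 134 include 16 that left out only the 9 and 8 cells marked by Scrublet, which could move little. Among those that moved, ratios between libraries in endothelial-like cells also changed sign, and causes were not tested. All log2 ratios follow. Pde4b in myeloid-like against other high-burden cells (1.12) was -0.16 without metastatic-like cells, 0.76 as a mean over cells, 1.40 with free RNA subtracted and 1.35 without cells with a PYMT UMI. Pde4b in endothelial-like against other cells was 2.58 with the stricter gate, 2.01 as a mean over cells and 2.42 with free RNA subtracted in the low-burden library (2.21), and 2.26 with clusters for gates, 2.87 with free RNA subtracted, 3.07 without PYMT cells and 1.78 without metastatic-like cells in the high-burden library (2.52). Pde4b between libraries in endothelial-like cells (-0.37) was -0.63 with clusters, 0.011 as a mean over cells, 0.030 without PYMT cells and 0.17 in cluster 12 alone, the last chosen after seeing the data, and in stromal-like cells (-0.64) -0.024 with the stricter gate. Pde4d in epithelial-like against other high-burden cells (2.09) was 1.46 without metastatic-like cells, and between libraries in endothelial-like cells (-0.89) 1.51 in cluster 4 alone. Without the count filter, pathway genes past 2-fold numbered 17 in endothelial-like (6 with it), 25 in stromal-like (13), 18 in lymphoid-like (1), 27 in myeloid-like (16) and 20 in epithelial-like cells (4), and median-of-ratios scaling left 2 in epithelial-like cells. For single genes and shares, 497 of 563 alternatives stayed and 66 moved. Depth limits Pde4c, with 7 and 4 UMIs, and Pde4a and Pde4d in lymphoid-like cells, with 1 to 14 UMIs.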

Other observations

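Clusters 3 and 10 passed no rule for a name, and their Pde4b levels lay above those of the myeloid-like class of both libraries. Cluster 3, led by genes such as Hsd11b1, Tcf21 and Epas1, held 186 CPM in 84 low-burden and 226 CPM in 86 high-burden cells. In that cluster 70.2% of low-burden and 93.0% of high-burden cells had markers of more than 1 class on, so its level belongs to no class. Cluster 10, led by genes such as Plbd1, Cd207, Xcr1 and H2-Aa, held 105 CPM in 128 low-burden and 99.2 CPM in 137 high-burden cells. These are antigen-presentation and dendritic-cell genes, and the few cells gated as dendritic-like held 78.2 CPM (8 UMIs) and 87.9 CPM (11 UMIs).

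Cluster 18, an epithelial-like cluster with AT1 genes among its leading genes, held 75.5 CPM of Pde4b in the low-burden and 84.4 CPM in the high-burden library, while the epithelial-like clusters 2 and 17 held 16.4 to 25.2 CPM. Only 53.6% of its cells passed the epithelial gate, and 33.3% of its low-burden and 66.7% of its high-burden cells had markers of more than 1 class on, so its level too belongs to no class. In the low-burden library AT1-like cells by the finer gate held 48.9 CPM (7 UMIs) and AT2-like cells 15.4 CPM (9 UMIs).

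A UMI of at least 1 Pde4 gene was found in 61.9% of low-burden endothelial-like cells and in 23.1% to 33.9% of cells of the other low-burden classes, all unthinned. UMIs of 2 or more members in the same cell were found in 13.02% of low-burden and 20.9% of high-burden endothelial-like cells, also unthinned. In the other classes these shares ran from 1.49% in low-burden myeloid-like to 11.7% in high-burden epithelial-like cells. Every class present in both libraries had the higher share in the deeper high-burden library, so the shares give no order between libraries.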
